A study of Drosophila melanogaster with 7 samples.

Results

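A set of 79 genes was examined whose RNA was lower in Drosophila intestinal progenitor cells without the transcription factor Sox21a than in wild type cells, with no overlap between libraries. The members were chosen by their measured levels in this same comparison. The deposited table gives FPKM, the fragments mapped to a gene scaled to the length of its exons and to the mapped reads of the library, for 7608 gene IDs, and 2684 of these had a value above 0 in all 7 libraries. Of these, 2448 reached at least 2 FPKM in at least 1 library and could enter the set. A gene entered when its lowest wild type value was at least 1.5 times its highest Sox21a-/- value, which held for 82 of the 2448 genes (3.35%). The mirrored condition, with the lowest Sox21a-/- value at least 1.5 times the highest wild type value, held for 165 genes (6.74%). The genes lz, klu and lncRNA:roX1 were left out by name, which gave the 79 members. Since the rule read this contrast, the lower level of each member is what the rule asked for, and the values of members are given as a description with no test.

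RNA-seq was carried out on GFP+ cells sorted from adult midguts at day 10. Wild type stands for the Esg-GFP line (4 libraries), and Sox21a-/- for the Esg-GFP; Sox21a-/- line (3 libraries). Both groups thus carry the Esg-GFP fusion by which cells were sorted, while the fluorescence gate was set on midguts of a separate line. The guts of many flies were pooled for each sort, and the Sox21a allele behind each library is not named in the labels. Esg-GFP marks both intestinal stem cells (ISCs) and enteroblasts (EBs), the progeny of ISCs that become enterocytes, and each library is a bulk of such cells. Fewer cells of a type and less RNA per cell cannot be told apart in these values.

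The libraries held between about 8240000 and 10290000 reads as recovered from the steps between their lowest values, and between 23.0% and 28.5% of the values in a library were exactly 0. Such a 0 can be a failed estimate in this table, and the rule kept only genes without any. No other pair of libraries was as alike as wild type replicates 3 and 4, with 89.6% of 2364 genes within 1.5-fold of each other, against 62.8% to 71.5% in the other wild type pairs. On the recovered reads, the median chi-square per gene of this pair was 0.917, against 3.92 to 6.76 in the other wild type pairs. A share of 17.3% of the genes differed by more than the limit that counting error alone passes in 5% of genes, against 50.4% to 60.2% in the other wild type pairs. They were kept as separate libraries, and counts of calls with both averaged are given beside the fit. The targeted gene Sox21a was at 0, 0, 230.4 and 233 FPKM in the wild type libraries and 96.3, 50.6 and 0 FPKM in the Sox21a-/- libraries, so it gives no check of the genotype labels. The progenitor markers esg and Dl were not analysed here. The enteroendocrine hormone gene NPF was at 3989 to 9268 FPKM in the wild type libraries. Its values in Sox21a-/- replicates 1 to 3 were 5435, 8621 and 0 FPKM. AstA did not pass 4.80 FPKM in any library, and Tk was above 0 only in wild type replicate 3 (1700 FPKM). In the enterocyte gene Jon65Aiv, wild type libraries ranged from 142 to 535 FPKM. Sox21a-/- replicates 1 to 3 had 0, 3211.5 and 1515 FPKM of it. The enterocyte genes betaTry and Amy-p were listed at 0 in some libraries of both groups. Defining genes of other cell types were thus measured in the sorted samples, but unevenly. The summed level of the hemocyte markers NimC1, Col4a1 and vkg was 2.21 to 3.40 FPKM in wild type and 6.88 to 66.8 FPKM in Sox21a-/-. A further hemocyte marker, crq, was listed at 0 in wild type replicate 1 and was at 110.5 to 129.5 FPKM in the other wild type libraries and at 122.8 to 140.8 FPKM in Sox21a-/-. Their part in the results was not tested.

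Ribosomes are built in the nucleolus, where RNA polymerase I transcribes the ribosomal RNA precursor and RNA polymerase III supplies the small 5S ribosomal RNA. Small nucleolar ribonucleoproteins modify the precursor, and a large cast of assembly factors, among them RNA helicases, GTPases and methyltransferases, folds, cuts and exports it as the small (40S) and the large (60S) subunit. These factors are not part of the finished ribosome, and cells that grow and divide are known to make much use of them.

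Members had a median mean level of 21.8 FPKM in wild type and 8.67 FPKM in Sox21a-/-. The Sox21a-/- mean was between 13.7% and 55.7% of the wild type mean, with a median of 41.3%, whereas it was 98.9% at the median of the 2448 genes. The wild type mean exceeded the Sox21a-/- mean 2- to 3-fold in 51 of the 79 members, and the largest excess was 7.28-fold. Most members were moderately expressed, since 54 (68.4%) had a wild type mean between 10 and 60 FPKM, a range that held 42.2% of the 2448 genes. A specific role could be given to 50 of the 79 members from their names or from well known counterparts in yeast or human. Of these 50, 34 act in ribosome production. Roles were given to members only, so no share over the 2448 genes stands beside this count. CG12301 and CG11920, which are held by a longer list of ribosome biogenesis genes used further on, were not given a specific role and are not among the 34. The 34 comprise 10 factors of the small subunit, 18 of the large subunit, 2 core proteins of box C/D small nucleolar ribonucleoproteins, 3 subunits of RNA polymerase I or III, and 1 helicase of the nuclear exosome. Their Sox21a-/- means stood at 42.6% of wild type at the median.

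**Figure D1:**
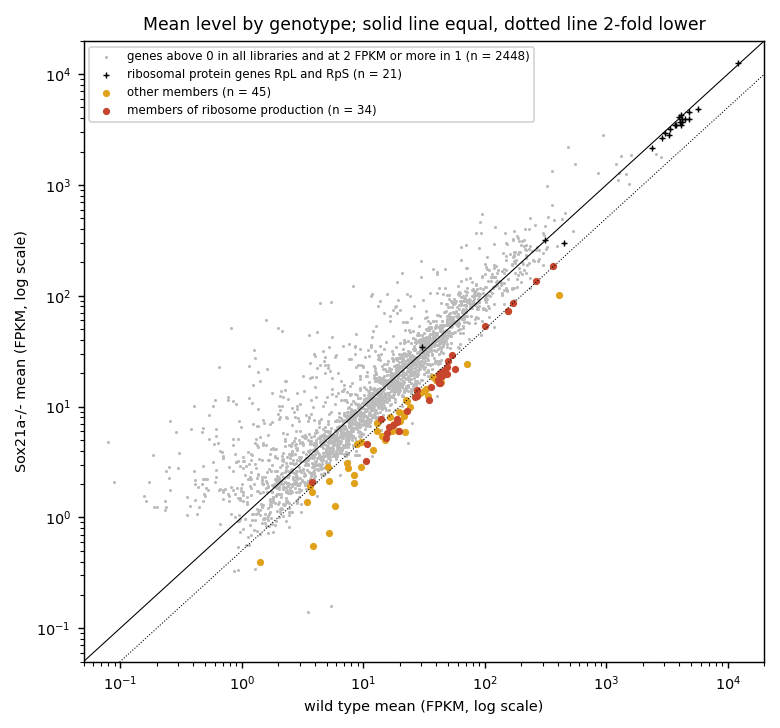
Mean FPKM of the 2448 genes that could enter the set, wild type on the x axis and Sox21a-/- on the y axis, both on a log scale, with 1 point per gene. The 34 ribosome production members (red) and the 45 other members (yellow) lie near or below the dotted line of a 2-fold lower level, as the rule requires, while the 21 RpL and RpS ribosomal protein genes (crosses) mostly lie near the line of equal levels.

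Values below are given in the order of the replicates, wild type 1 to 4 and Sox21a-/- 1 to 3. Of the small subunit factors, bys (FBgn0010292, chromosome X, 7901880 to 7903643 in BDGP6) encodes bystin, an assembly factor of the small subunit known from yeast and human. It was at 39.9, 47.9, 39.4 and 41.9 FPKM in the wild type libraries and 15.8, 15.3 and 17.6 FPKM in the Sox21a-/- libraries. As the rule requires of every member, all Sox21a-/- libraries lay below every wild type library. The means were 42.3 ± 3.91 FPKM (SD, n = 4) in wild type and 16.2 ± 1.18 FPKM (SD, n = 3) in Sox21a-/-. The gene kz encodes Kurz, a DEAH-box RNA helicase, and was at 9.03, 12.4, 10.3 and 10.1 FPKM in the wild type libraries and 2.92, 2.61 and 4.07 FPKM in the Sox21a-/- libraries. CG7728, the counterpart of the yeast GTPase Bms1, was at 22.3, 25.6, 23.8 and 20.01 FPKM in the wild type libraries and 9.20, 8.85 and 9.54 FPKM in the Sox21a-/- libraries. In both genes the spread among the Sox21a-/- libraries was smaller than the distance between the groups. The gene l(3)72Dn, the counterpart of human cirhin (yeast Utp4), was at 17.5, 17.1, 14.03 and 14.1 FPKM in the wild type libraries and 5.71, 5.26 and 6.51 FPKM in the Sox21a-/- libraries. The gene l(2)k09022, the counterpart of human HEATR1 (yeast Utp10), was at 18.1, 18.8, 21.9 and 17.1 FPKM in the wild type libraries and 5.05, 7.41 and 9.51 FPKM in the Sox21a-/- libraries. Both proteins belong to a complex that binds the nascent ribosomal RNA precursor, and the genes stood at 37.2% and 38.6% of the wild type mean.

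LTV1 and RIOK2 act late in small subunit assembly and were the most highly expressed members of this class. LTV1, an export and maturation factor, was at 262, 267, 263 and 261 FPKM in the wild type libraries and 157, 109 and 145 FPKM in the Sox21a-/- libraries. Its wild type libraries differed by little, with a mean of 263 ± 2.51 FPKM (SD, n = 4), while the Sox21a-/- libraries spread more widely, with a mean of 137 ± 25.4 FPKM (SD, n = 3). RIOK2, a kinase of late small subunit particles, was at 54.9, 52.9, 46.0 and 45.6 FPKM in the wild type libraries and 29.6, 21.4 and 25.9 FPKM in the Sox21a-/- libraries, but 48.5% of its exon bases also belong to another gene, so these reads may be shared. Tsr1 stood at 41.3% of wild type, Rrp5 at 40.9%, and CG2972, the counterpart of the yeast endonuclease Nob1 that makes the last cut of the small subunit RNA, at 51.1%. In all 10 genes every Sox21a-/- library was below every wild type library, as the rule requires.

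Among the large subunit factors, Dbp73D (FBgn0004556, chromosome 3L, 16728496 to 16730818 in BDGP6) had the widest gap between its groups. It encodes a DEAD-box RNA helicase, the counterpart of yeast Dbp6, and was at 21.1, 23.0, 17.02 and 18.5 FPKM in the wild type libraries and 6.12, 5.72 and 6.04 FPKM in the Sox21a-/- libraries. Its Sox21a-/- libraries were nearly identical, with a mean of 5.96 ± 0.214 FPKM (SD, n = 3) against 19.9 ± 2.65 FPKM (SD, n = 4) in wild type. CG32344, the counterpart of human DDX54, was at 30.2, 40.7, 33.6 and 35.1 FPKM in the wild type libraries and 11.3, 9.81 and 13.3 FPKM in the Sox21a-/- libraries. CG9630, the counterpart of human DDX55, was at 14.49, 18.9, 15.7 and 16.63 FPKM in the wild type libraries and 7.24, 5.07 and 7.32 FPKM in the Sox21a-/- libraries. With CG5800, the counterpart of human DDX10, the DEAH-box gene kz and the exosome helicase gene Mtr4, these were 6 RNA helicase genes, whose Sox21a-/- means ranged from 29.99% to 55.2% of wild type. CG5800 was classed with other RNA helicases and is not counted among the ribosome production members or their large subunit factors. It was at 13.1, 14.47, 11.6 and 13.0 FPKM in the wild type libraries and 6.03, 5.85 and 6.33 FPKM in the Sox21a-/- libraries. Mtr4, which feeds RNA to the nuclear exosome, was at 14.1, 14.03, 13.8 and 14.4 FPKM in the wild type libraries and 6.85, 8.19 and 8.28 FPKM in the Sox21a-/- libraries and had the smallest relative difference of these 6 genes.

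RNA methyltransferases were present as well. CG8939, the counterpart of yeast Spb1, was at 39.6, 53.2, 39.7 and 39.3 FPKM in the wild type libraries and 17.16, 13.8 and 18.1 FPKM in the Sox21a-/- libraries, and wild type replicate 2 lay well above the other wild type libraries. CG8545, the counterpart of yeast Nop2, stood at 38.5% of the wild type mean. CG5033, the counterpart of human BOP1, and CG4364, the counterpart of pescadillo, encode partners of a complex of early large subunit particles. CG5033 was at 43.4, 50.6, 38.7 and 45.1 FPKM in the wild type libraries and 20.8, 15.3 and 20.96 FPKM in the Sox21a-/- libraries. CG4364 was at 353, 372, 353 and 371 FPKM in the wild type libraries and 198, 157 and 197 FPKM in the Sox21a-/- libraries, and was the most highly expressed ribosome production member. The GTPase genes Ns1 and Ns2 are relatives of nucleostemin, which is named for its presence in mammalian stem cells. Ns1 was at 55.9, 61.9, 47.8 and 51.4 FPKM in the wild type libraries and 30.7, 26.5 and 30.8 FPKM in the Sox21a-/- libraries. Ns2 was at 104, 108, 94.1 and 97.5 FPKM in the wild type libraries and 57.9, 50.6 and 52.2 FPKM in the Sox21a-/- libraries. These genes stood at 54.0% and 53.2% of wild type, so the relative differences were of similar size. Mys45A, the counterpart of yeast Sda1, was at 26.3, 30.2, 25.9 and 29.4 FPKM in the wild type libraries and 13.4, 10.8 and 13.3 FPKM in the Sox21a-/- libraries.

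The other large subunit members were peng (45.8% of the wild type mean), the counterpart of yeast Puf6, CG6937 (42.5%), the counterpart of human NIFK, and CG1542 (44.9%), the counterpart of yeast Ebp2. Rbm13 (47.0%) is the counterpart of yeast Mak16, CG1785 (47.5%) that of yeast Nop53, and CG13096 (40.2%) carries a ribosomal L1 domain. CG5776, the counterpart of the yeast AAA-type ATPase Afg2, was the least expressed of them at 4.30, 3.71, 3.38 and 3.84 FPKM in the wild type libraries and 2.04, 2.01 and 2.24 FPKM in the Sox21a-/- libraries.

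**Figure D2:**
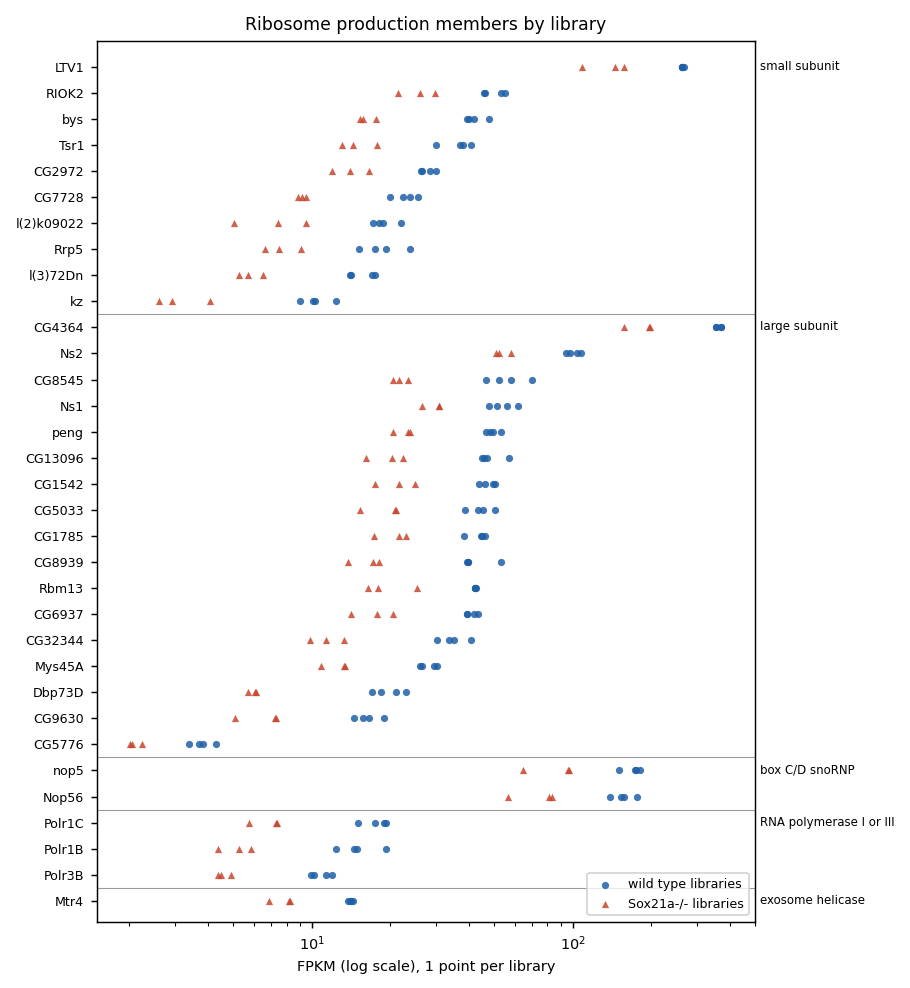
FPKM of 33 of the 34 ribosome production members on a log x axis, with 1 point per library (blue circles, 4 wild type; red triangles, 3 Sox21a-/-) and the genes ordered by class and by wild type mean. As the rule requires, all red points lie left of all blue points in each gene, from CG5776 near 2 to 4 FPKM up to CG4364 between 157 and 372 FPKM.

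The genes Nop56 and nop5 encode core proteins of box C/D small nucleolar ribonucleoproteins, which guide methylation of ribosomal RNA. Within each library these genes had levels near each other. Nop56 was at 139, 177, 153 and 157 FPKM in the wild type libraries and 83.1, 56.5 and 81.0 FPKM in the Sox21a-/- libraries. The gene nop5 (Nop58 in yeast) was at 151, 181, 173 and 174 FPKM in the wild type libraries and 96.5, 64.3 and 95.7 FPKM in the Sox21a-/- libraries. In both genes Sox21a-/- replicate 2 was the lowest library. Fib, the methyltransferase fibrillarin of the same particle, was no member but was at 117, 156, 206 and 212 FPKM in the wild type libraries and 97.8, 61.0 and 100.4 FPKM in the Sox21a-/- libraries, which is 50.05% of the wild type mean and again without overlap.

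Polymerase members were expressed at a lower level. Polr1B, the second largest subunit of RNA polymerase I, was at 12.4, 19.2, 14.496 and 14.9 FPKM in the wild type libraries and 5.25, 4.39 and 5.83 FPKM in the Sox21a-/- libraries. Polr1C, which RNA polymerases I and III share, was at 17.5, 19.2, 15.02 and 18.9 FPKM in the wild type libraries and 7.27, 5.75 and 7.37 FPKM in the Sox21a-/- libraries. Polr3B, the second largest subunit of RNA polymerase III, was at 10.2, 11.9, 11.3 and 9.96 FPKM in the wild type libraries and 4.48, 4.37 and 4.90 FPKM in the Sox21a-/- libraries. Their Sox21a-/- means were 33.8% to 42.3% of wild type. Other subunits outside the set did not all follow, since Polr1D, the partner of Polr1C in both enzymes, was at 28.5, 18.5, 24.8 and 24.9 FPKM in the wild type libraries and 38.6, 23.9 and 18.8 FPKM in the Sox21a-/- libraries, with overlapping groups. Polr1F was at 10.5, 10.02, 9.44 and 7.36 FPKM in the wild type libraries and 5.86, 7.18 and 4.44 FPKM in the Sox21a-/- libraries, without overlap but below the fold limit.

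To examine the pathway beyond the members, a list of 60 ribosome biogenesis genes was followed, which was written with earlier results of these data known. The table held 53 of them, 14 of which are members. Among the 28 list genes that met the entry conditions of the set, 21 were lower in Sox21a-/- with no overlap and 0 were higher with no overlap, while these shares over all 2448 genes were 17.6% and 16.3%. Without the members, 7 of 14 list genes were lower with no overlap (14.9% over all 2369 genes that are no members), and they stood at 64.6% of wild type at the median. The 7 genes were Fib, NHP2, Nop10, Gar1, Ski6, Polr1F and Nmd3. NHP2, Nop10 and Gar1 encode core proteins of the H/ACA particles that convert uridine to pseudouridine in ribosomal RNA. NHP2 was at 105, 72.9, 90.8 and 104 FPKM in the wild type libraries and 52.8, 37.1 and 43.7 FPKM in the Sox21a-/- libraries. Nop10 was at 313, 153, 255 and 227 FPKM in the wild type libraries and 135, 96.7 and 120.3 FPKM in the Sox21a-/- libraries. Gar1 was at 93.1, 128, 101 and 109 FPKM in the wild type libraries and 78.5, 45.2 and 70.1 FPKM in the Sox21a-/- libraries. In these H/ACA genes the wild type and Sox21a-/- libraries did not overlap. As genes outside the set, they have a gap below the fold limit by the rule. Their gap thus cannot be set against that of the members Nop56 and nop5. The list also holds genes whose groups overlapped, such as Nop17l at 80.2% of wild type and Rrp1, a DNA repair enzyme despite its place on the list, at 97.5%.

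The rule could not take the 25 list genes that were listed at 0 in at least 1 library. When zeros were set aside, a step chosen after seeing the data, 21 of these had at least 2 values above 0 in each group and reached 2 FPKM. In 20 of the 21 genes every wild type value above 0 exceeded every Sox21a-/- value above 0, and 0 were ordered the other way, with eIF6 as the exception. Over all 2516 genes with zeros that met these conditions, 24.6% were ordered as lower and 17.8% as higher in Sox21a-/-. Polr1A, the largest subunit of RNA polymerase I, was at 15.03, 26.9, 18.9 and 17.9 FPKM in the wild type libraries and 0, 7.56 and 9.13 FPKM in the Sox21a-/- libraries. RIOK1, a kinase related to RIOK2, was at 0, 0, 19.2 and 17.6 FPKM in the wild type libraries and 7.74, 6.002 and 7.85 FPKM in the Sox21a-/- libraries. Non1, a nucleolar GTPase, was at 851, 1034, 0 and 1025 FPKM in the wild type libraries and 582, 392 and 588 FPKM in the Sox21a-/- libraries, and its values above 0 in the groups did not meet. With zeros left in, such genes give large errors in a fit.

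**Figure D3:**
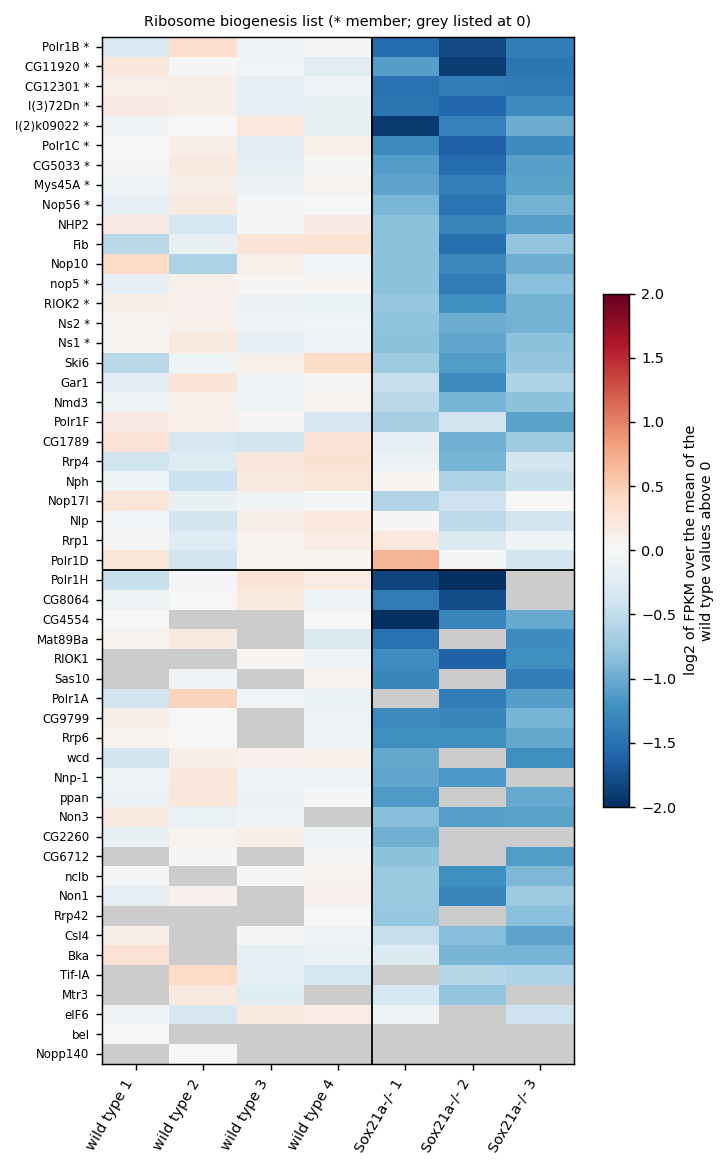
Level of 52 of the 53 ribosome biogenesis list genes in each library as the log2 of FPKM over the mean of the gene's wild type values above 0 (blue lower, red higher, grey listed at 0), for 27 genes above 0 in all libraries in the upper block and 25 genes with zeros in the lower block. Stars mark 13 members, and most colours in the 3 Sox21a-/- columns are blue also for genes without a star, with Sox21a-/- replicate 2 often darkest.

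As a fit over all genes, limma was run on log2(FPKM + 1) for 6565 genes whose mean was 1 FPKM or more, and calls were made at a Benjamini-Hochberg adjusted p of at most 0.05. The p-values measure only the spread between these libraries. It called 69 genes lower (1.05%) and 91 higher (1.39%) in Sox21a-/-. Of the 78 members tested, 37 were called lower, a count that the rule largely sets, since it read the same values. The median log2 difference was -1.19 over the members and 0.04 over all genes tested. In the ribosome biogenesis list, 7 of 53 genes were called lower and 0 higher, with a median log2 difference of -0.90, and 24 were lower and 0 higher at an unadjusted limma p of at most 0.05. At that unadjusted p, 6.18% of all 6565 genes were lower and 8.16% higher. The list median of -0.90 and the count of 24 include members, which were chosen on the same values. The 7 called genes (Ns2, l(3)72Dn, CG11920, CG12301, CG5033, Mys45A and Polr1C) are all members. None of the 39 list genes outside the set was called, with a smallest adjusted p of 0.0663 (limma, Benjamini-Hochberg), while 10 of these were lower and 0 higher at an unadjusted p of at most 0.05, against 5.06% lower and 8.26% higher over the 6487 tested genes that are no members. The count of 7 did not hold under several settings, as it fell to 0 when wild type replicate 3, wild type replicate 4 or Sox21a-/- replicate 3 was left out and to 1 without wild type replicate 2, and it rose to 34 with zeros treated as missing. The count of 37 members fell to 4, 5, 11 and 12 without these same libraries and to 21 without Sox21a-/- replicate 1, and was 78 with zeros treated as missing. With wild type replicates 3 and 4 averaged, a step chosen after seeing the data, 3 members and 0 list genes were called.

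Ribosomal proteins and translation factors, which were barred from the set by name, would have added no member. Of 77 barred ribosomal protein, eIF and snoRNA genes that met the entry conditions, 0 passed the fold limit. The Sox21a-/- means were at 92.1% of wild type at the median of 11 RpL genes and at 93.7% of 10 RpS genes, and no gene of either kind was lower without overlap. For 39 mitochondrial ribosomal protein genes the median was 103%, and for 9 eIF genes it was 84.2%, with 3 lower without overlap and a largest group ratio of 1.36. The structural proteins of the ribosome stood nearer to the wild type level than the assembly factors in the set, but the rule fixed the low level of the latter. This comparison thus cannot show whether these kinds of gene differ. For 8 snoRNA genes the median was 62.2% of wild type, and 0 of them were lower without overlap.

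None of the other lists of gene functions held a member. Over all 2448 genes that met the entry conditions, 17.6% were lower and 16.3% higher without overlap. At an unadjusted limma p of at most 0.05, 6.18% of all 6565 genes tested were lower and 8.16% higher. The counts below stand beside these shares. Of 20 aminoacyl-tRNA synthetase genes tested, limma called 0 in either direction (2 lower and 0 higher at an unadjusted p of at most 0.05), with a median log2 difference of -0.32. Of the 13 that met the entry conditions of the set, 2 were lower without overlap and 0 were higher. Splicing and RNA processing genes had a median of -0.17 over 32 genes, with 0 called (4 lower and 0 higher unadjusted), and 6 of 19 were lower and 1 higher without overlap. Cell cycle genes had a median of -0.13 over 38 genes, with 0 called (2 lower and 0 higher unadjusted), and 2 of 19 were lower and 0 higher without overlap. Oxidative phosphorylation genes lay on the other side, with a median of 0.63 over 53 genes, of which 0 were called and 12 were higher and 0 lower at an unadjusted p of at most 0.05. In that list 18 of 42 genes that met the entry conditions were higher without overlap and 0 were lower. Progenitor and enteroblast genes had a median of 0.30 over 15 genes, with 0 called (0 lower and 2 higher unadjusted). Enterocyte genes had a median of 1.04 over 41 genes, with 1 called higher and 14 of 17 higher without overlap. The list genes outside the set that limma called were lz and GstE9, which were lower, and LysP, kek1 and tobi, which were higher. The enzyme gene GstE9 was listed at 0 in all Sox21a-/- libraries, and LysP in all wild type libraries.

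**Figure D4:**
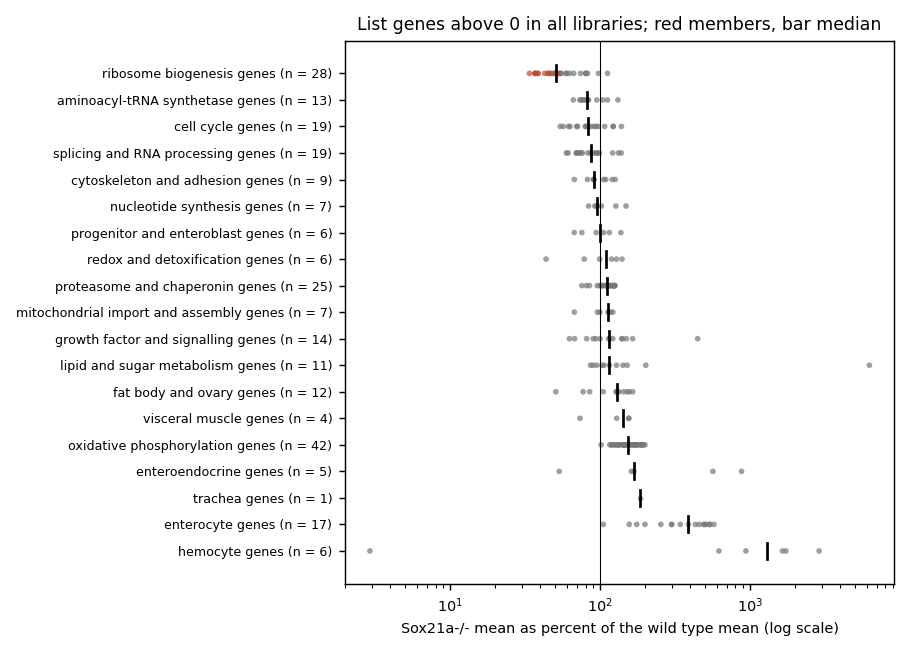
Sox21a-/- mean as a percent of the wild type mean (log x axis) for list genes that were above 0 in all libraries and reached 2 FPKM, with 1 point per gene, red for members, and a bar at the median of each list. The ribosome biogenesis list has the lowest median, 50.9%, and it is the only list with members. The rule set the low level of these members, 14 of its 28 genes here, and the 14 other genes have a median of 64.6%. Oxidative phosphorylation genes have a median of 152%.

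Beyond the ribosome, 2 enzymes that modify RNA or protein were in the set. Dus3, which encodes a dihydrouridine synthase of transfer RNA, was at 10.9, 14.698, 10.9 and 11.4 FPKM in the wild type libraries and 4.22, 3.94 and 4.03 FPKM in the Sox21a-/- libraries. Art3, an arginine methyltransferase gene, stood at 41.2% of the wild type mean.

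The 4 members that act at the cell surface or in signalling differed more among themselves. Nepl4, a gene of the neprilysin-like peptidases, was at 2.44, 5.38, 6.02 and 7.04 FPKM in the wild type libraries and 0.610, 0.669 and 0.873 FPKM in the Sox21a-/- libraries. It had the lowest relative level of all members, 13.7% of wild type, but wild type replicate 1 was well below the other wild type libraries, and the Sox21a-/- values rest on 12 to 18 recovered reads. The gene fng (FBgn0011591, chromosome 3L, 20925891 to 20949512 in BDGP6) encodes Fringe, a glycosyltransferase that modifies the Notch receptor. It was at 15.6, 33.2, 20.6 and 18.3 FPKM in the wild type libraries and 6.86, 5.14 and 5.55 FPKM in the Sox21a-/- libraries, with a wild type spread of 7.80 FPKM (SD, n = 4) around 21.9 FPKM, in which replicate 2 was highest. Dtg, named as a target of the BMP ligand Dpp, was the most abundant of the 4 genes at 168, 130.4, 162 and 163 FPKM in the wild type libraries and 77.2, 58.2 and 84.1 FPKM in the Sox21a-/- libraries. CG31183, a receptor guanylyl cyclase gene, stood at 37.3% of the wild type mean.

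Among the members with a role in chromatin or transcription the levels were low to moderate. Bap111, a subunit of the Brahma chromatin remodelling complex, was at 16.58 ± 1.30 FPKM (SD, n = 4) in wild type and 8.11 ± 1.09 FPKM (SD, n = 3) in Sox21a-/-, and so stood at 48.9% of wild type. Fcp1, a phosphatase of the RNA polymerase II tail, stood at 55.7%, the smallest relative difference of all members. Sirt6, a deacylase gene, and Ice2, a subunit of the little elongation complex, stood at 40.4% and 45.2%. Among other named members, Ude, a uracil-DNA degrading factor, was at 30.4, 28.6, 28.9 and 29.2 FPKM in the wild type libraries and 13.6, 13.5 and 12.4 FPKM in the Sox21a-/- libraries, and 30.8% of its exon bases also belong to another gene. Cnb, the gene of the centriole protein centrobin, stood at 40.4%, Crg-1 at 29.5% and Dnaaf4, an assembly factor of axonemal dynein, at 27.7%, with 3 to 20 recovered reads per library. The only long non-coding RNA was lncRNA:CR43943, at 8.23, 13.96, 5.86 and 5.58 FPKM in the wild type libraries and 2.30, 2.31 and 2.66 FPKM in the Sox21a-/- libraries.

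No specific role was given to 29 members, among them the one with the highest level. CG34330 (FBgn0085359) lies on chromosome X, 19068275 to 19068973, in BDGP6. Its level was 422, 400.0, 376 and 432 FPKM in the wild type libraries and 75.6, 175 and 56.2 FPKM in the Sox21a-/- libraries. Sox21a-/- replicate 2 was thus more than 2 times as high as the other Sox21a-/- libraries, and the group means were 408 ± 24.8 FPKM (SD, n = 4) in wild type and 102 ± 63.8 FPKM (SD, n = 3) in Sox21a-/-. CG7800 was at 6.99, 6.57, 4.67 and 5.11 FPKM in the wild type libraries and 1.28, 0.968 and 1.53 FPKM in the Sox21a-/- libraries. CG32639 was at 5.77, 9.71, 8.02 and 10.1 FPKM in the wild type libraries and 2.40, 1.502 and 2.22 FPKM in the Sox21a-/- libraries. The gene l(2)34Fd was at 16.3, 15.4, 14.8 and 14.1 FPKM in the wild type libraries and 5.98, 4.49 and 4.51 FPKM in the Sox21a-/- libraries. In CG7800 and CG32639 all Sox21a-/- values rest on fewer than 50 recovered reads, and in CG32639 wild type replicates 1 and 3 do as well. At least 1 such value was present in 12 members. CG12301 and CG11920 are the members of the ribosome biogenesis list in this group. CG12301 was at 21.4, 21.7, 17.6 and 19.0 FPKM in the wild type libraries and 7.08, 7.52 and 7.44 FPKM in the Sox21a-/- libraries, with Sox21a-/- libraries that differed by less than 1 FPKM. CG11920 was at 39.6, 34.5, 32.6 and 29.5 FPKM in the wild type libraries and 15.9, 9.13 and 12.5 FPKM in the Sox21a-/- libraries. In both genes every wild type value was more than 1.5 times every Sox21a-/- value, as the rule requires. CG12499 was at 13.9, 15.1, 14.1 and 13.7 FPKM in the wild type libraries and 4.36, 5.71 and 6.10 FPKM in the Sox21a-/- libraries. CG3434 was at 21.2, 23.9, 19.97 and 22.1 FPKM in the wild type libraries and 9.01, 7.81 and 7.72 FPKM in the Sox21a-/- libraries. Both genes thus had a similar relative level, 37.97% and 37.6% of wild type. In CG12643 wild type replicate 1 stood apart at 131 FPKM, while its other libraries were at 47.8 to 56.6 FPKM in wild type and 18.6 to 27.8 FPKM in Sox21a-/-.

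The remaining named members without a specific role were CG18273, CG13097, CG5114, CG9328, CG32409, CG7275, CG4806, CG7985, FBgn0022288, CG9123, CG12909, CG17652, CG7137 and CG12134. Their Sox21a-/- means ranged from 31.0% of wild type in CG9328 to 53.7% in CG12134. A further 6 members had no name in the annotation used here. The ID FBgn0052822 had the widest gap of all members, at 5.64, 4.29, 2.88 and 2.61 FPKM in the wild type libraries and 0.354, 0.853 and 0.458 FPKM in the Sox21a-/- libraries. The ID FBgn0035707 was at 31.0, 38.5, 31.7 and 31.0 FPKM in the wild type libraries and 14.6, 13.2 and 15.7 FPKM in the Sox21a-/- libraries. The former was weakly expressed, and 5 members in all had a Sox21a-/- value under 1 FPKM.

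The edge of the set was not sharp. Just inside the limit of 1.5, CG12134 was at 11.6, 14.2, 14.1 and 12.6 FPKM in the wild type libraries and 6.92, 6.46 and 7.73 FPKM in the Sox21a-/- libraries. The ID FBgn0025140 had a ratio of the lowest wild type to the highest Sox21a-/- value of 1.504, and CG5776 one of 1.51. Just outside, the ID FBgn0027885 had a ratio of 1.499. The tRNA methyltransferase gene Trmt61 followed with 1.48, at 6.93, 7.87, 9.96 and 10.2 FPKM in the wild type libraries and 2.70, 4.67 and 4.63 FPKM in the Sox21a-/- libraries. For dpn, the gene of the transcription factor Deadpan, the ratio was 1.48, at 3.17, 2.17, 2.11 and 1.80 FPKM in the wild type libraries and 1.21, 0.462 and 1.12 FPKM in the Sox21a-/- libraries. At a limit of 2 the set had 27 members, and at a limit midway between 1 and 1.5 it had 166.

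Features that the rule had not used were compared with those of all genes that could enter the set. Of 73 annotated members, 72 were protein-coding, with a median exon length of 2099 bases against 1597.5 bases over the annotated genes among the 2448. A single annotated transcript was found for 52 of 73 (71.2%) against 53.9%. They were spread over the large chromosome arms much like those genes, with 15 on 2L (20.5% against 20.5%), 13 on 2R (17.8% against 19.0%), 13 on 3L (17.8% against 19.8%), 17 on 3R (23.3% against 24.0%) and 15 on X (20.5% against 16.62%). Only CG13096 and CG13097 lay within 5000 bases of each other. Both are on the minus strand of 2L, from 8509069 to 8511866 and from 8512174 to 8514868 in BDGP6, with 307 bases between them. CG13096 was at 45.0, 57.0, 45.9 and 47.0 FPKM in the wild type libraries and 20.3, 16.1 and 22.3 FPKM in the Sox21a-/- libraries. CG13097 was at 18.2, 24.9, 22.3 and 20.5 FPKM in the wild type libraries and 9.23, 7.58 and 9.20 FPKM in the Sox21a-/- libraries. Their relative levels were thus similar, 40.2% and 40.4% of wild type. In 21 members some exon bases belonged to another gene as well, and in 3 (Ude, RIOK2 and CG12134) this was at least 20%.

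The spread and the order of the libraries within a genotype were also described. The spread of the members was small, with a median coefficient of variation of 10.9% in wild type and 15.1% in Sox21a-/-, against 20.9% and 19.97% over the 2448 genes, although a rule that asks for separated groups favours small spreads. Wild type replicate 2 was the highest wild type library in 43 members (54.4%), against 22.5% of the 2448 genes. Sox21a-/- replicate 2 was the lowest Sox21a-/- library in 52 members (65.8%), against 40.2%. Among the 34 ribosome production members these counts were 24 (70.6%) and 31 (91.2%), and Sox21a-/- replicate 2 was the highest library of its group in 0 of them. Libraries of either genotype also differed in depth. The mean of wild type replicates 1 and 2 over Sox21a-/- replicate 2, the libraries with about 10180000 to 10290000 reads, had a median of 2.71 over the members. The mean of wild type replicates 3 and 4 over that of Sox21a-/- replicates 1 and 3, with about 8240000 to 8900000 reads, had a median of 2.22. The first ratio was the larger in 65 of 79 members (82.3%) and in 32 of the 34 ribosome production members, against 57.5% of the 2448 genes, whose median ratios were 1.06 and 0.98. At either depth level the members were thus lower in Sox21a-/-, which was part of the rule.

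Sox21a-/- replicate 2 also had the most RNA of some genes of other cells. Col4a1, vkg and NimC1, markers of hemocytes, were at 33.1, 18.8 and 14.96 FPKM there and at most 5.40, 2.23 and 2.01 FPKM in any other library. The yolk protein gene Yp1 was at 77.5 FPKM there and at 12.5 to 64.2 FPKM in the other libraries. Yp2, another yolk protein gene, was also highest there, at 105.5 FPKM. Not all markers of such cells were highest there. The ovary gene osk peaked in wild type replicate 1, at 21.5 FPKM against 11.9 FPKM in Sox21a-/- replicate 2. The fat body gene Fbp1 and the hemocyte gene crq peaked in Sox21a-/- replicate 3, at 1.997 and 140.8 FPKM. Sox21a-/- replicate 2 had 0.941 and 122.8 FPKM of these. The part of such RNA in the order of the members was not tested. Without Sox21a-/- replicate 2 the rule gave 103 genes, and the median log2 difference of the members was -1.07. Leaving out any other library gave 91 to 120 genes. A member could leave these sets only through the floor of 2 FPKM, since leaving out a library never narrows the gap between the groups, so the sets do not show how the members depend on a library.

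**Figure D5:**
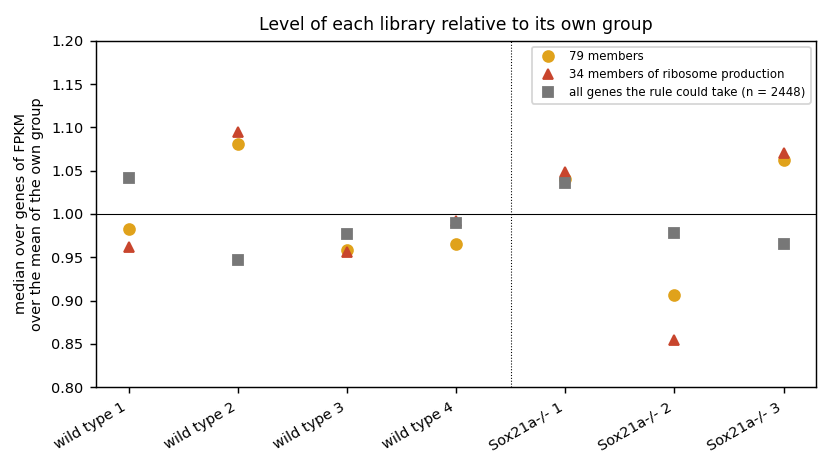
Median over genes of FPKM relative to the mean of the gene's own group, for each library on the x axis, with circles for the 79 members, triangles for the 34 ribosome production members and squares for the 2448 genes that could enter the set. Wild type replicate 2 lies above 1 for the members (1.08) and below 1 for all genes (0.947), and Sox21a-/- replicate 2 lies lowest for the ribosome production members (0.854).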

How the data were processed

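RNA-seq was performed by the authors on Esg-GFP+ midgut cells sorted by FACS. Single-end reads were aligned by TopHat2 2.0.10 to the Drosophila melanogaster Release 5 assembly and the BDGP5 annotation, and the deposited FPKM values were computed with Cufflinks 2.2.1 (per the submitters' processing notes and the methods). No read counts were used. The methods give 3 biological replicates, while 4 wild type libraries were analysed here. Whether libraries came from separate flies is not stated in the labels.

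Names and positions were taken from BDGP6 by FlyBase ID, with 7339 of 7608 IDs matched. Depth was recovered from the smallest steps of FPKM times kilobases (5 to 39 genes per library), so reads per gene are approximate.

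The members, gene lists and roles were chosen with earlier results of these data known. Every member was named except 1 that is not reported here by name and enters counts and medians only. Values by library were given for the 20 members with the widest gap, the 5 with the highest wild type mean, and members on a list or sharing a family. List genes outside the set were named where limma called them, and others were picked after their values were seen. The fit used limma 3.58.1 in R 4.3.3 (trend and robust settings, two-sided, no covariate) on log2(FPKM + 1), and other steps used Python 3.11.15, numpy 2.4.6, pandas 2.3.3 and matplotlib 3.10.9. The fit was also run on simulated data, the outcome of which is not reported here. The alternatives were other fold limits, floors, pseudocounts, filters and scalings, limma without trend and robust settings, zeros treated as missing, genes without zeros, each library left out and the replicate number as a block. The average of wild type replicates 3 and 4 was added after seeing the data. Promoter sequences were not analysed here.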

Additional observations from a re-analysis of the deposited data

Results flagged for a closer look

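In 8 of the 79 members, 1 of the 4 wild type libraries stood far from the other wild type libraries by Dixon's criterion. Chance alone marks about 1 in 20 groups, which is 3.95 of 79 members. Wild type replicate 2 was far above the others in Dus3, at 14.698 FPKM against 10.9 to 11.4 FPKM, and in CG8939, at 53.2 FPKM against 39.3 to 39.7 FPKM. The same library was the high one in CG13096, at 57.0 FPKM against 45.0 to 47.0 FPKM, and in FBgn0035707, at 38.5 FPKM against 31.0 to 31.7 FPKM. In Dtg it was instead far below, at 130.4 FPKM against 161.8 to 168.0 FPKM. Wild type replicate 1 was far above in CG12643, at 131 FPKM against 47.8 to 56.6 FPKM. Wild type replicate 3 was apart in CG5114, at 37.9 FPKM against 39.7 to 40.0 FPKM, and in Rbm13, at 42.5 FPKM against 42.0 to 42.1 FPKM, where the differences were small.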

How the results depend on the processing

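The median log2 difference of the members was between -1.07 and -1.27 under the 18 alternatives, while counts of calls moved. The set had 166 members at a fold limit midway between 1 and 1.5, 27 at 2, and 91 to 120 when any library was left out. With zeros treated as missing, limma called 265 genes lower, 345 higher, 78 members and 34 genes of the ribosome biogenesis list, and over zero-free genes alone it called 196, 227, 78 and 18. With the replicate block these counts were 2, 1, 0 and 0, with 72 members and 18 list genes lower at an unadjusted p of at most 0.05. The deviations of same-numbered libraries correlated at 0.00163, 0.372 and 0.207 over 2448 genes. Sox21a-/- replicates 2 and 3 correlated best with the wild type library of their own number. For Sox21a-/- replicate 1 the best match was wild type replicate 4, at 0.27. Whether same-numbered libraries were handled together was not tested. Leaving out 1 library gave 45 to 93 genes lower, 68 to 119 higher, 4 to 27 members and 0 to 5 list genes (23 to 27 list genes at an unadjusted p). With wild type replicates 3 and 4 averaged, chosen after seeing the data, 51 genes were higher, and 3 members and 0 list genes were lower (75 and 22 unadjusted). A pseudocount of 0.01 gave 58 members and 16 list genes, 0.1 gave 12 list genes, a mean of at least 5 FPKM gave 59 genes higher and 11 list genes, and limma without trend and robust settings gave 20 members and 4 list genes. Of 591 alternative values of single named members, 22 moved by over 1 SD, 18 of them at other pseudocounts, while the direction of the members is set by how they were chosen.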
